A study of Mus musculus with 32 samples.

Results

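The 10 genes described here mark macrophages and are part of the 39399 genes listed in all 32 libraries. They were followed through the mouse cochlea before and after damaging noise: Cd68, Mpeg1, Csf1r, Adgre1, Aif1, Cd14, Fcgr1, Itgam, Cx3cr1 and Ctss. Their values were taken by gene symbol, and the set was chosen with earlier results of these data known. Each library gives expression as TPM, each gene's share of the library's transcripts after correction for gene length, so levels of different genes can be set side by side. Mice aged 10 weeks heard noise at 105 dB SPL for 2 h and were taken 6 h or 24 h later, or stayed without noise as controls. All carried the RiboTag allele, by which Cre adds an HA tag to a ribosomal protein, and the series design names CBA as a further background and a CreERT2, the tamoxifen-dependent form, for both drivers. In PrestinCre/+;RiboTagHA/+ mice the tag was aimed at outer hair cells, and in Sox2Cre/+;RiboTagHA/+ mice at supporting cells. Part of each cochlear homogenate went through HA immunoprecipitation (IP) and another part was the input, the whole cochlea. The Prestin strain gave 3 IP and 3 input libraries for each of control, 6 h and 24 h. The Sox2 strain gave 2 of each for control, 2 for 6 h and 3 for 24 h. The controls thus carried the same alleles as the noise groups, and no group lacked Cre or the tag.

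Macrophages live in the spiral ligament, spiral ganglion, stria vascularis and basilar membrane of the healthy cochlea. Acoustic injury is known to draw monocytes from the blood, which become further macrophages, and resident cells change shape. The 10 genes cover the main working parts of such a cell. Csf1r is the receptor for the survival factors Csf1 and Il34, Cx3cr1 the receptor for the chemokine Cx3cl1, and Itgam (CD11b) a subunit of the integrin that binds Icam1 and complement. Adgre1 encodes F4/80, the classical surface antigen of mouse macrophages. Cd14 presents lipopolysaccharide to Tlr4, and Fcgr1 is the high-affinity receptor for IgG. Cd68 is a glycoprotein of late endosomes and lysosomes, Ctss the lysosomal cysteine protease cathepsin S, Mpeg1 a pore-forming protein of phagosomes and Aif1 (Iba1) an actin-binding protein. Cd14 and Cd68 are not limited to macrophages in mouse tissues, since epithelial cells and fibroblasts can also make them.

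Cd68 and Fcgr1 passed the test as higher in the whole cochlea at 24 h. Mpeg1 did not pass there, although its 24 h inputs lay above the controls within each strain. The upstream sequences of these 3 members are shown. Each is the 250 bases before the transcription start in the RefSeq promoter table (GRCm38.p6), written 5′ to 3′ on the gene's strand, with matches to the searched motifs in capitals.
Cd68: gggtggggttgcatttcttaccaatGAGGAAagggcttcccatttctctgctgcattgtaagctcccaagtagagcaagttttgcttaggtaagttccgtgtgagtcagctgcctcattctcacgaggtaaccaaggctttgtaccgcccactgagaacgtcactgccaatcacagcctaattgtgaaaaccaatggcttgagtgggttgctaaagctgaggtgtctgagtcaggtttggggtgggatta
Fcgr1: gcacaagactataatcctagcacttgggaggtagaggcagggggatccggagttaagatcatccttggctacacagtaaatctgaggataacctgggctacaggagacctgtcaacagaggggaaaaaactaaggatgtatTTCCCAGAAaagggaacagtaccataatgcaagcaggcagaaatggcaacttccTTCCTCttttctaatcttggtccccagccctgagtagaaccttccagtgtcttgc
Mpeg1: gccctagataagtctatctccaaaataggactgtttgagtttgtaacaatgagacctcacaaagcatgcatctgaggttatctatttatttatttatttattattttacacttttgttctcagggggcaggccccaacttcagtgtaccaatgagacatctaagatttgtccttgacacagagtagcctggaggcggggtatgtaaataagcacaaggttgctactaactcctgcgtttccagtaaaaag
The Cd68 stretch lies at chr11:69666171-69666420 on the minus strand, the Fcgr1 stretch at chr3:96293970-96294219 on the minus strand and the Mpeg1 stretch at chr19:12460520-12460769 on the plus strand. The 3 motifs were searched on both strands: GAGGAA, the core bound by the myeloid factor PU.1, TTCNNNGAA, the GAS form bound by STAT dimers, and GAAANNGAA, a core of the interferon-stimulated response element. GAGGAA was present 225 to 220 bases before the Cd68 start and, as its reverse complement, 55 to 50 bases before the Fcgr1 start. Fcgr1 also held the GAS form, 109 to 101 bases before its start, and the Mpeg1 stretch held none of these letters. Of the 7 members searched, 5 held GAGGAA, against 23.25% of 32851 mouse promoters. The GAS form was in 1, against 7.02%, and the interferon core in 2, Aif1 and Ctss, against 7.129%. In Ctss it stood 21 to 13 bases before the start. Matches of this length describe letters, not bound sites, and their relation to the response was not tested.

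The libraries listed 15929 to 21239 genes above 0, and the 4 Sox2 libraries at 6 h, IP and input, stood apart at 15929 to 16966, followed by Sox2 control IP replicate 4 at 17395 and all others at 18592 or more. Replicates of a Prestin group had a Pearson r across genes, on the log2(TPM + 1) scale, of 0.914 to 0.969 for the IPs and of 0.970 to 0.982 for the inputs. For the Sox2 groups it was 0.922 to 0.950 for the IPs and 0.939 to 0.974 for the inputs. The number of reads behind a TPM value is unknown. The labelled targets were checked in the IPs: 6 of 6 outer hair cell markers were higher in Prestin IP than in input (median log2 difference 2.38) and 6 of 6 supporting cell markers in Sox2 IP (2.93). Of all genes, 68.5% were higher in Prestin IP and 55.2% in Sox2 IP, with median log2 differences of 0.82 and 0.65. In Sox2 IP, 6 of 6 markers of Schwann and satellite glia were higher too (2.45). These glia markers summed to 1158 to 2097 TPM in the Prestin IPs, against 622 to 1116 TPM in the Prestin inputs. Tests ran on log2(TPM + 1) with limma across all genes, and a gene passed at a Benjamini-Hochberg adjusted p under 0.05. This scale understates changes of genes near 1 TPM. Adgre1 and Itgam were too low to be tested anywhere and Cx3cr1 in all fits that include Prestin libraries, which left 7 members, or 8 where only Sox2 libraries entered, unless the filter was left out or values were rescaled. In bulk tissue, fewer cells of a type and less RNA per cell cannot be told apart.

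In the whole cochlea without noise, the 10 members ran over a wide range of TPM. Mpeg1 averaged 33.0 ± 4.89 TPM over the 5 control inputs of both strains, Cd14 15.8 ± 8.08 and Cd68 15.1 ± 2.68. Ctss followed at 6.25 ± 1.06 TPM, Csf1r at 5.74 ± 1.48 and Aif1 at 3.65 ± 1.17. Fcgr1 averaged 1.07 ± 0.635 TPM, Cx3cr1 0.685 ± 0.0961, Itgam 0.369 ± 0.139 and Adgre1 0.207 ± 0.0786. In this order of levels, neighbours overlapped between libraries except at 3 steps: Cd68 above Ctss, Aif1 above Fcgr1, and Cx3cr1 above Itgam. The surface antigens F4/80 and CD11b, widely used to stain macrophages, thus had the lowest listed TPM of the set. For CD11b (Itgam), exonic bases shared with another gene limit this reading, as given below.

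**Figure D1:**
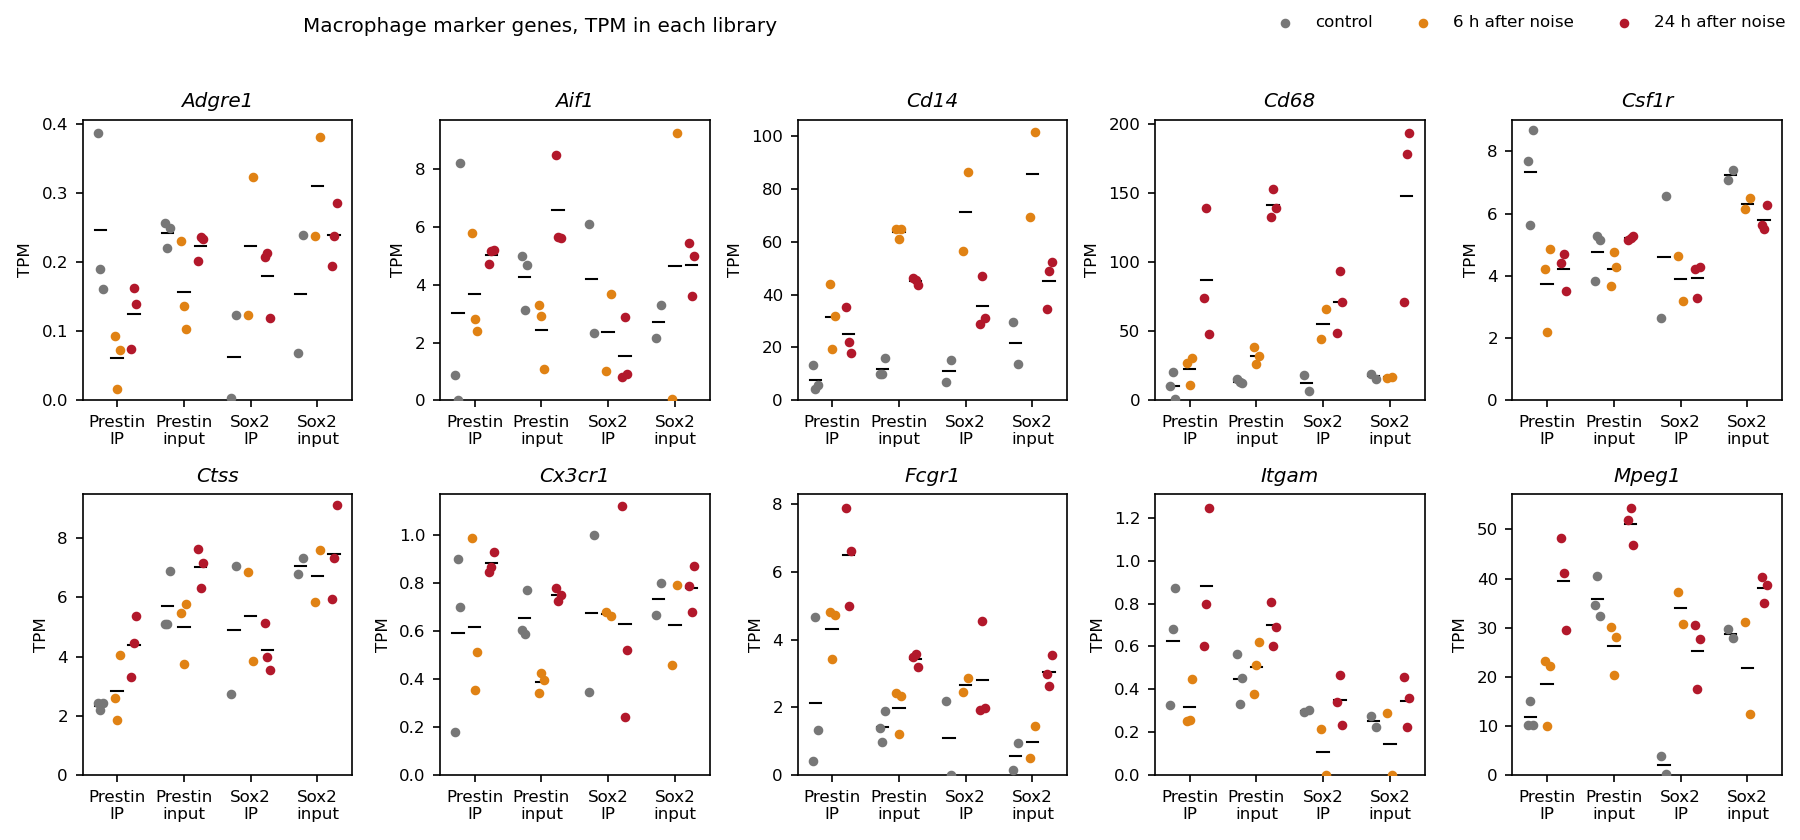
TPM of each of the 10 macrophage marker genes in every library (points), with group means (bars), by pull-down (IP) or whole cochlea (input) of each strain. Colours run from control (grey) through 6 h (orange) to 24 h after noise (red), and each gene has its own linear axis starting at 0. Cd68 inputs reached 71.1 to 194 TPM at 24 h, whereas Csf1r inputs stayed between 3.66 and 7.39 TPM throughout.

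At 24 h, Cd68, Cd14 and Fcgr1 were higher in the whole cochlea than without noise, Cd68 by 3.15 ± 0.257 on the log2 scale, and 4 other tested members did not pass. Only Cd14 passed at 6 h. The input comparison asks how the marker RNA of the whole organ changes, and was fitted on the 16 inputs with strain as a covariate.

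Cd68 (chr11:69664213-69666153, GRCm38) stood at 15.2, 13.2 and 12.4 TPM in the Prestin control inputs, at 38.5, 26.1 and 32.3 TPM at 6 h and at 133, 153 and 139 TPM at 24 h. In the Sox2 inputs it was 19.4 and 15.3 TPM in controls, 16.5 and 17.1 TPM at 6 h, and 71.1, 178.5 and 194 TPM at 24 h. Every 24 h input of both strains lay above every control and every 6 h input. At 6 h the Prestin inputs lay above their controls and the Sox2 inputs lay within theirs. The 24 h difference had an adjusted p of 7.24e-06, the 13th smallest of 14204 genes, and held within the Prestin inputs alone (3.29, adjusted p = 0.000157). The Sox2 inputs alone gave 2.90 with an adjusted p of 0.112. Cd68 made up 15.4% to 20.2% of the summed TPM of the 10 members in the control inputs, but 42.4% to 63.1% at 24 h.

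Cd14, the lipopolysaccharide co-receptor, took an earlier course. It stood at 9.79, 10.0 and 16.01 TPM in the Prestin control inputs, at 64.8, 60.9 and 64.7 TPM at 6 h and at 46.3, 45.3 and 43.8 TPM at 24 h. The Sox2 inputs held 29.5 and 13.9 TPM in controls, 69.5 and 101 TPM at 6 h and 34.6, 49.1 and 52.2 TPM at 24 h. All noise inputs lay above all control inputs, and in each strain the 6 h values lay above the 24 h values. Cd14 was higher than in controls by 2.21 ± 0.214 at 6 h (adjusted p = 2.43e-05) and by 1.52 ± 0.206 at 24 h (adjusted p = 0.000421). Set directly against 6 h, the 24 h inputs were lower by 0.69 ± 0.206 (log2 -0.69, adjusted p = 0.0365), a call that did not survive leaving out both Sox2 groups at 6 h (-0.65, adjusted p = 0.142), nor leaving out any 1 of 6 single inputs (adjusted p of 0.0593 to 0.0948). It was 0.151 with the replicate number as a block.

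Fcgr1, the IgG receptor (chr3:96282909-96293969), started near 1 TPM. Its values were 1.39, 0.98 and 1.88 TPM in Prestin control inputs, 2.42, 1.22 and 2.34 TPM at 6 h and 3.49, 3.58 and 3.20 TPM at 24 h. The Sox2 inputs held 0.158 and 0.95 TPM in controls, 0.51 and 1.46 TPM at 6 h and 2.97, 2.64 and 3.55 TPM at 24 h. All 24 h inputs lay above all others, while 6 h and control inputs overlapped. The 24 h difference was 1.13 ± 0.189 (adjusted p = 0.00218).

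Mpeg1, the phagosomal pore protein (chr19:12460779-12465283), was the most abundant member without noise and moved less. It stood at 34.6, 40.4 and 32.3 TPM in Prestin control inputs, at 30.1, 20.3 and 28.1 TPM at 6 h and at 52.0, 54.5 and 46.8 TPM at 24 h. In Sox2 inputs it was 29.8 and 27.8 TPM in controls, 31.2 and 12.4 TPM at 6 h and 40.4, 35.0 and 38.8 TPM at 24 h. Within each strain the 24 h inputs lay above the controls, but across strains these groups overlapped. Neither 24 h (0.45 ± 0.173, adjusted p = 0.199) nor 6 h (-0.48, adjusted p = 0.119) differed from control, whereas 24 h lay above 6 h by 0.93 ± 0.173 (adjusted p = 0.00243). Without the 4 Sox2 libraries at 6 h, Mpeg1 passed on both sides of control, at -0.47 at 6 h (adjusted p = 0.0415) and at 0.45 at 24 h (adjusted p = 0.0145), and without Sox2 6 h input replicate 2 alone at -0.66 at 6 h (adjusted p = 0.0118).

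The growth factor receptor, the protease cathepsin S and the actin-binding protein Iba1 did not pass in the inputs at either time. Csf1r had 3.83 to 5.27 TPM in the Prestin control inputs, 3.66 to 4.76 TPM at 6 h and 5.14 to 5.28 TPM at 24 h, and 7.07 to 7.39, 6.15 to 6.49 and 5.51 to 6.26 TPM in the Sox2 inputs at the same stages. Its log2 difference from control was -0.15 ± 0.102 at 6 h and -0.06 ± 0.0978 at 24 h (adjusted p = 0.844). The 873 exonic bases that Csf1r shares with Hmgxb3 on the opposite strand can exchange reads if strand was not used in counting, which is not given in the sources used here. Ctss (chr3:95526786-95556403) gave 0.17 ± 0.129 at 24 h (adjusted p = 0.626), with 5.94 to 9.12 TPM in the 24 h inputs, against 5.11 to 7.32 TPM in the control inputs. Aif1 (chr17:35170991-35176068) gave 0.55 at 24 h (adjusted p = 0.631) and -0.47 at 6 h (adjusted p = 0.543). Within each strain its 24 h inputs lay above the controls, at 5.62 to 8.49 TPM, against 3.14 to 4.98 TPM, in Prestin and at 3.63 to 5.45 TPM, against 2.15 to 3.31 TPM, in Sox2, and across strains these groups overlapped. At 6 h it ran unevenly, with 0.03 and 9.25 TPM in the 2 Sox2 inputs at 6 h, and without replicate 4 of these it passed at 6 h (-0.99, adjusted p = 0.0417).

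The 3 untested members stayed at or below 1.25 TPM in every library. Cx3cr1 (chr9:119901616-120069879) had 0.59 to 0.77 TPM in Prestin control inputs, 0.34 to 0.42 TPM at 6 h and 0.72 to 0.78 TPM at 24 h, so that its 6 h inputs lay under the others of that strain. The Sox2 inputs gave 0.67 to 0.80 TPM in controls, 0.46 to 0.79 TPM at 6 h and 0.68 to 0.87 TPM at 24 h, which overlap. With the low-value filter left out, Cx3cr1 passed in limma over both strains as higher at 24 h than at 6 h (0.250, adjusted p = 0.0321). Against control it did not pass at 6 h (-0.192, adjusted p = 0.152) or at 24 h (0.058, adjusted p = 0.791). Itgam (chr7:128062640-128118491) had 0.33 to 0.57 TPM in Prestin control inputs, 0.38 to 0.62 TPM at 6 h and 0.60 to 0.81 TPM at 24 h, where the 24 h values lay above the controls. In the Sox2 inputs Itgam ranged from 0 to 0.46 TPM with no such separation. Of its 5024 annotated exonic bases, 3450 are shared with the predicted gene Gm49368 on the same strand. Reads in these shared bases cannot be told apart, and Gm49368 is not among the genes listed in the libraries. Adgre1 (chr17:57358691-57483527) stayed between 0.07 and 0.38 TPM in the inputs, and its groups overlapped at both times.

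**Figure D2:**
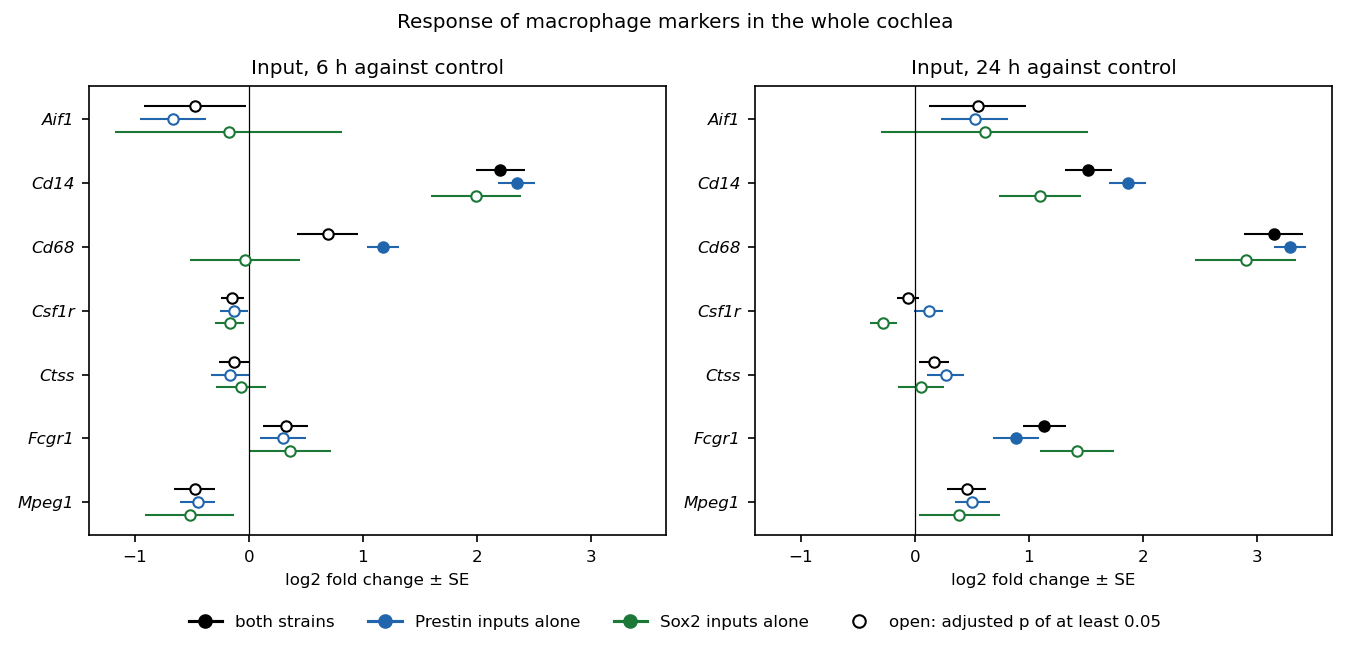
Log2 fold change ± SE of the 7 tested members in inputs, noise against control, at 6 h (left) and 24 h (right), for both strains together (black) and for Prestin (blue) or Sox2 inputs alone (green). Filled points have an adjusted p under 0.05. Cd14 passed at both times, Cd68 reached 3.15 at 24 h, and Csf1r lay at -0.06.

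Counted over the set, 1 of 7 tested members was higher at 6 h and 0 were lower, against 3.83% of all 14204 genes higher and 4.71% lower (796 and 429 genes with median-of-ratios scaling in place of 544 and 669). At 24 h, 3 of 7 were higher and 0 lower, against 3.78% and 0.662%. From 6 h to 24 h, Cd68, Mpeg1 and Fcgr1 were higher and Cd14 lower, against 12.6% higher and 3.48% lower (1040 and 810 genes with median-of-ratios scaling in place of 1790 and 494). Both noise comparisons share their control libraries. At 6 h, the Sox2 inputs differed from the Prestin inputs in the Cd68 response by -1.21 ± 0.467 on the log2 scale without passing (adjusted p = 0.241), and no member passed that test, which 1.17% of all genes did. For the 24 h response, 0% of genes passed between strains with limma, with 1107 of 14204 at an unadjusted p under 0.05, and Csf1r had the smallest p among the members (-0.40, adjusted p = 0.58). Without the Sox2 libraries at 6 h, 3 members passed at 6 h in the remaining inputs, with Cd68 at 1.09 (adjusted p = 0.0411) beside Cd14 and Mpeg1.

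Attractants, ligands and signalling partners were set beside the members in the inputs. Both lists were chosen with earlier results of these data known. Of all 14204 genes, 3.83% were higher and 4.71% lower at 6 h, and 3.78% higher and 0.662% lower at 24 h. Of 12 macrophage chemoattractants, 9 were higher at 24 h and 0 lower, with a median of 1.73 against 0.02 for all genes. Ccl3, Ccl4 and Ccl8 averaged 0.325, 0.022 and 0.368 TPM in control inputs, so their passing of the 1 TPM filter rested mainly on noise inputs. Ccl5 was higher by 3.20, Ccl7 by 4.19 and Ccl2, the main ligand of the monocyte receptor Ccr2, by 4.36, as was the interferon-induced Cxcl10 by 4.49. At 6 h, 5 of 12 were higher, Ccl7 by 4.63, Ccl2 by 3.98, Cxcl16 by 1.16 and Csf1 by 0.74. Of 13 tested ligands and signalling partners of the members, 5 were higher at 24 h, among them Icam1, a ligand of the Itgam integrin, by 2.13, Csf1, the ligand of Csf1r, by 1.30, Lbp, which loads Cd14 with lipopolysaccharide, by 0.81, and the Tlr adaptor Myd88 by 0.99. At 6 h, 2 of the 13 were higher, Icam1 by 1.23 and Csf1 by 0.74, and Cst3, an inhibitor of cathepsins, was lower (-0.18, adjusted p = 0.0337). The other ligand of Csf1r, Il34, stood at -0.51 at 6 h (adjusted p = 0.0514).

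Other genes of macrophages moved less than Cd68. Of all 14204 genes, 3.78% were higher and 0.662% lower at 24 h. Of 12 tested genes of macrophage and myeloid identity, the complement genes C1qb (0.99) and C1qa (0.69) were higher at 24 h, while C1qc stood at 0.74 (adjusted p = 0.0839) and the transcription factor Irf8 at 0.42 (adjusted p = 0.117). The list's median was 0.41, and at 6 h C1qa was lower (-0.63, adjusted p = 0.0125). From 6 h to 24 h, 6 of the 12 were higher, against 12.6% of all genes. Of 18 lysosomal genes, 9 were higher at 24 h and 0 lower, with a median of 0.30, and the smallest p-values belonged to the proteases Ctsb (0.64), Ctsc (0.67) and Ctsd (0.29) and to Grn, a lysosomal regulator (0.62). Of 4 tested Fc receptor genes, 1, the recycling receptor Fcgrt (0.33), was higher at 24 h. Of 7 tested markers of resident macrophages, 0 were higher and Siglech was lower (-0.97, adjusted p = 0.000726), with Tmem119 at -0.43 (adjusted p = 0.386). Siglech was low, averaging 0.545 TPM at 24 h, against 1.96 TPM in controls. Sall1, also on this list, averaged 47.0 TPM in the Sox2 control IPs, against 7.74 TPM in the control inputs of both strains. The part of other cells in these markers was not tested.

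**Figure D3:**
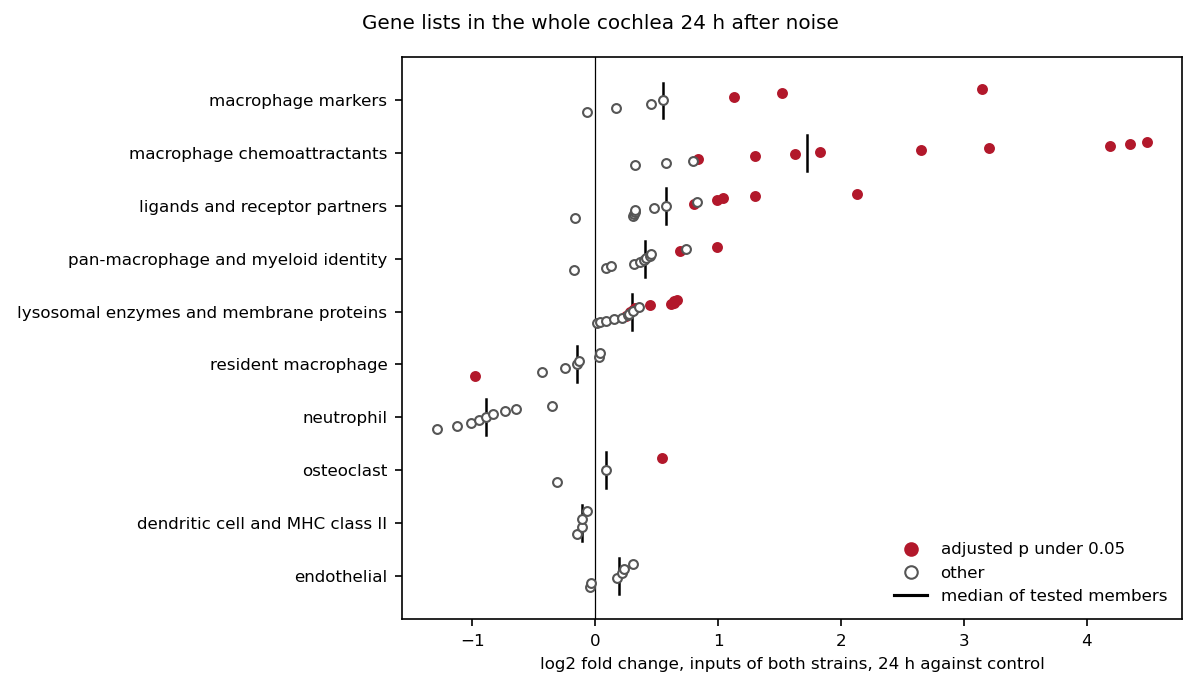
Log2 fold change at 24 h against control in the inputs of both strains for every tested gene of 10 lists (points), red where the adjusted p was under 0.05, with list medians (vertical bars). Chemoattractants had a median of 1.73, the 7 tested macrophage markers 0.55 and the 9 tested neutrophil genes -0.89.

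Markers of other blood-borne cells are given beside these results. Of 9 tested neutrophil genes in the inputs, 0 passed at 24 h (limma, 4 at an unadjusted p under 0.05) and all 9 had negative log2 differences, with a median of -0.89 at 24 h and -1.01 at 6 h. The 12 neutrophil markers summed to 54.8 to 266.5 TPM in Prestin inputs at 24 h, 88.5 to 171 TPM at 6 h and 203 to 485 TPM in controls. In Sox2 inputs they summed to 81.4 to 193.5 TPM at 24 h, 62.8 to 85.8 TPM at 6 h and 107 to 162 TPM in controls. Ly6g, Cxcr2, Retnlg, Mmp8, Mpo and Elane were listed at 0 in at least 1 input each. Of 10 monocyte markers, 1, Ly6c2, was high enough to test (0.12 at 24 h, adjusted p = 0.918), and Ccr2 ranged from 0 to 0.776 TPM over the inputs. Of 6 tested erythroid genes, 3 were lower at 6 h and 0 at 24 h, against 4.71% and 0.662% of all genes. The part of these cells in the marker values was not tested.

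The members' profiles over the inputs were compared by Pearson's r of log2(TPM + 1), as a description over 16 libraries that share strains and time groups. Against the mean of the other members, Cd68 had the highest r (0.739), followed by Fcgr1 (0.685), Cx3cr1 (0.633), Ctss (0.627) and Aif1 (0.528). Mpeg1 stood at 0.329, Adgre1 at 0.25, Itgam at 0.045, Csf1r at 0.027 and Cd14 at 0.026. Within the 9 Prestin inputs Mpeg1 reached 0.795 and Itgam 0.626, against -0.025 and -0.014 within the 7 Sox2 inputs. Among 7583 other genes averaging 5 TPM or more in the inputs, those nearest to the members' mean profile were Parp9 (0.953), Sting1 (0.931), Ddx58 (0.923), H2-T22 (0.919), Tap2 (0.917), Gbp2 (0.904), Shisa5 (0.902), Il18bp (0.901), Ifitm3 (0.897) and Zc3hav1 (0.893).

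Setting each IP against its input shows how far the pull-downs kept or lost a transcript, and macrophages are not the labelled target of either driver. In Prestin IP, Mpeg1, Cd14 and Ctss were lower than in the input of the same homogenates, averaged over the 3 conditions, and Fcgr1 was higher. In Sox2 IP, Mpeg1, Csf1r and Ctss were lower on the same average. All tested members of both strains lay below the median gene, which was 0.82 higher in Prestin IP and 0.65 higher in Sox2 IP on this scale.

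Mpeg1 was lower in Prestin IP by 0.82 ± 0.158 (log2 -0.82, adjusted p = 0.000256), with IP below input in 9 of 9 homogenates. In Prestin IP it stood at 10.2, 15.2 and 10.2 TPM in controls, at 23.2, 9.98 and 22.3 TPM at 6 h and at 48.2, 41.1 and 29.5 TPM at 24 h. In Sox2 IP it was 3.94 and 0.29 TPM in controls, 37.2 and 30.7 TPM at 6 h and 30.6, 17.5 and 27.7 TPM at 24 h. The Sox2 difference was -1.14 ± 0.308 (adjusted p = 0.00907), with IP below input in 5 of 7 homogenates. The exceptions were both 6 h homogenates, with IPs at 37.2 and 30.7 TPM, against inputs of 31.2 and 12.4 TPM. The gap was widest in the controls of both strains.

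Ctss was lower in 9 of 9 Prestin homogenates (-0.75 ± 0.121, adjusted p = 4.66e-05) and in 6 of 7 Sox2 homogenates (-0.52 ± 0.199, adjusted p = 0.0466). The Sox2 value did not pass with the homogenate as a block (adjusted p = 0.0836), nor without 1 of several single libraries, at the most without 6 h IP replicate 4 (-0.40, adjusted p = 0.122). Cd14 was lower in 8 of 9 Prestin homogenates (-0.87 ± 0.207, adjusted p = 0.00148), and in Sox2 IP stood at -0.51 (adjusted p = 0.0956). Csf1r was lower in 7 of 7 Sox2 homogenates (-0.57 ± 0.165, adjusted p = 0.0126). In Prestin IP Csf1r stood at 0.03 ± 0.122, above its input in 5 of 9 homogenates. Hmgxb3, its antisense neighbour, was higher in Prestin IP by 1.14 ± 0.0805 (adjusted p = 7.3e-09) and in Sox2 IP by 0.77 (adjusted p = 0.0019), and the part of its reads in the Csf1r values was not tested.

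Fcgr1 was higher in Prestin IP by 0.58 ± 0.214 (adjusted p = 0.0234), with IP above input in 7 of 9 homogenates, which is still below the median gene. Its IP values were 0.41, 4.67 and 1.32 TPM in controls, 4.81, 3.44 and 4.74 TPM at 6 h and 7.90, 4.99 and 6.62 TPM at 24 h. Of the 6 noise IPs, 5 lay above every Prestin input, whose highest value was 3.58 TPM. The call was lost in the control libraries alone (0.15, adjusted p = 0.813) and on rescaling without mitochondrial genes and Malat1 (0.45, adjusted p = 0.0853), and the sign turned with median-of-ratios scaling (-0.17, adjusted p = 0.444). Cd68 stood at -0.75 in Prestin IP (adjusted p = 0.0775) and at 0.04 in Sox2 IP, and Aif1 at -0.29 and -0.31.

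**Figure D4:**
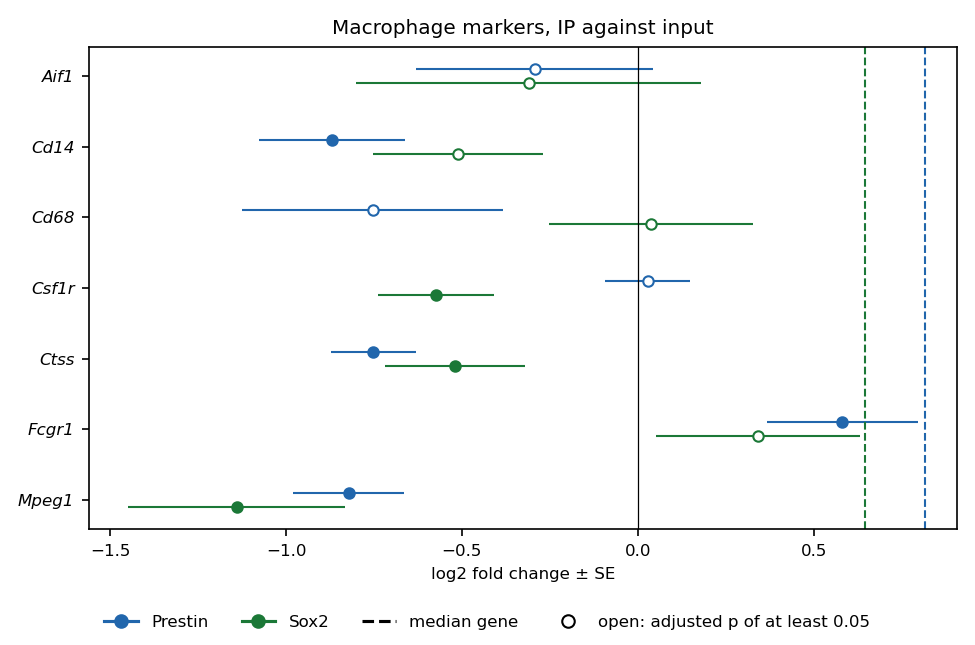
Log2 fold change ± SE of tested members in IP against input, averaged over control, 6 h and 24 h, for Prestin (blue) and Sox2 (green); dashed lines mark the median of all genes in each strain, at 0.82 and 0.65. Filled points have an adjusted p under 0.05. Fcgr1 in Prestin lay at 0.58 and Mpeg1 in Sox2 at -1.14.

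Over the set, 3 of 7 members were lower and 1 higher in Prestin IP, against 7.68% of all 17363 genes lower and 68.5% higher, and 3 of 8 lower and 0 higher in Sox2 IP, against 2.72% of 18560 genes lower and 55.2% higher. Median-of-ratios scaling, which brings the median gene to 0.05 and 0.02, gave 5649 higher and 5456 lower genes in Prestin IP in place of 11885 and 1333, and 3440 and 3460 in Sox2 IP in place of 10241 and 505. With it, 7 of 8 members were lower in Prestin IP, where Cx3cr1 passed the filter after scaling (-0.33, adjusted p = 0.00965) and Fcgr1 did not pass the test, 5 of 8 were lower in Sox2 IP, and 0 were higher. Without Sox2 control IP replicate 4, which leaves only replicate 1 as control IP, Cd14 stood at -0.68 and Fcgr1 at 0.62 in Sox2 IP. In the control libraries alone, 2 members were lower in Prestin IP and 1 in Sox2 IP. The share of all genes called in the control libraries alone is not given here, and the shares above belong to the mean over conditions.

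In Prestin IP after noise, Cd14 was higher at 6 h and Mpeg1 at 24 h, each close to the threshold. In Sox2 IP no member passed at either time, although Mpeg1, Cd14 and Cd68 lay above both controls in every noise library. The Sox2 control IPs were 2 libraries, of which replicate 4 listed fewer genes above 0, and leaving out either leaves a single control. Beside the Prestin changes, Malat1, a long noncoding RNA of the nucleus, ranged from 12250 to 22820 TPM over the noise IPs, against 44030 to 73020 TPM over the control IPs of that strain. Mitochondrial transcripts made up 7.40% to 13.7% in these noise IPs, against 4.91% to 8.40% in the control IPs. The outer hair cell markers summed to 461 to 794 TPM in the noise IPs, against 724 to 2028 TPM in the control IPs, and their part in the members' values was not tested. With TPM rescaled without mitochondrial genes and Malat1, 0 members passed at 6 h and 1 at 24 h in Prestin IP.

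Cd14 had 13.5, 4.15 and 5.63 TPM in Prestin control IPs, 43.9, 19.3 and 31.8 TPM at 6 h and 35.3, 22.1 and 18.1 TPM at 24 h. All noise IPs lay above all control IPs. The 6 h difference was 1.97 ± 0.455 (adjusted p = 0.0476) and the 24 h difference 1.67 (adjusted p = 0.0685). The 6 h call was lost without any 1 of 8 single IPs, at the most without 6 h replicate 1 (1.70, adjusted p = 0.148). The 24 h difference passed without control replicate 1 (2.11, adjusted p = 0.0461), the highest control, whose omission raises the difference. In Sox2 IP, Cd14 stood at 6.84 and 15.1 TPM in controls, at 56.5 and 86.2 TPM at 6 h and at 29.0, 47.1 and 31.1 TPM at 24 h. The log2 differences were 2.66 ± 0.433 (adjusted p = 0.0685) and 1.68 (adjusted p = 0.233).

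Mpeg1 in Prestin IP, with the values given above, was higher at 24 h by 1.65 ± 0.341 (adjusted p = 0.0349), and all 24 h IPs lay above all control and 6 h IPs. The adjusted p was 0.0895 with the replicate number as a block, and from 0.0501 to 0.125 without 1 of 6 single IPs. The Sox2 differences were larger and did not pass, at 3.78 ± 0.639 at 6 h (adjusted p = 0.0716) and 3.34 at 24 h (adjusted p = 0.138), against controls of 3.94 and 0.29 TPM. Without Sox2 control IP replicate 1, the 6 h value was 4.75, but this leaves only replicate 4, at 0.29 TPM, as control.

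Cd68 had 10.5, 20.4 and 1.08 TPM in Prestin control IPs, 27.4, 11.2 and 30.4 TPM at 6 h and 74.5, 139 and 48.1 TPM at 24 h. The 24 h IPs lay above all others, and the controls spread widely. The 24 h difference was 3.33 ± 0.84 (adjusted p = 0.0563), and passed without control replicate 2 (4.04, adjusted p = 0.0419). That replicate was the highest control, so leaving it out raises the difference. In Sox2 IP, Cd68 had 18.3 and 6.90 TPM in controls, 44.3 and 66.1 TPM at 6 h and 48.5, 94.0 and 71.4 TPM at 24 h. Every noise IP lay above both controls, with differences of 2.16 (adjusted p = 0.118) and 2.50 (adjusted p = 0.161). At 6 h these Sox2 IPs lay above their own inputs of 16.5 and 17.1 TPM.

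Fcgr1 in Prestin IP gave 0.999 at 6 h (adjusted p = 0.218) and 1.48 at 24 h (adjusted p = 0.0965). Without control replicate 2, at 4.67 TPM, both passed, at 1.55 (adjusted p = 0.0443) and 2.03 (adjusted p = 0.0304). Replicate 2 was the highest control, so leaving it out raises both differences. Csf1r had 7.68, 5.62 and 8.69 TPM in Prestin control IPs, 4.20, 2.18 and 4.86 TPM at 6 h and 4.43, 4.70 and 3.52 TPM at 24 h. All noise IPs lay below all control IPs without passing (-0.84, adjusted p = 0.104, and -0.66, adjusted p = 0.172), while Hmgxb3 stood at -0.10 and -0.34 there. In Sox2 IP, Csf1r ranged from 2.63 to 6.55 TPM and its groups overlapped. Ctss stood at 0.67 at 24 h in Prestin IP (adjusted p = 0.15), where 3.31 to 5.37 TPM at 24 h lay above 2.18 to 2.42 TPM in controls.

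The remaining values in the pull-downs belong to members that were low or did not pass. Aif1 had 0.89, 0 and 8.23 TPM in Prestin control IPs, 5.78, 2.81 and 2.41 TPM at 6 h and 4.71, 5.17 and 5.19 TPM at 24 h, so that the controls alone spanned all later values. In Sox2 IP it ranged from 0.79 to 6.11 TPM. Fcgr1 in Sox2 IP had 2.17 and 0 TPM in controls, 2.47 and 2.88 TPM at 6 h and 1.92, 4.56 and 1.98 TPM at 24 h, which lay above both controls at 6 h and overlapped them at 24 h. Cx3cr1 ranged from 0.18 to 0.99 TPM over the Prestin IPs and from 0.24 to 1.12 TPM over the Sox2 IPs, and Itgam from 0.25 to 1.25 TPM and from 0 to 0.47 TPM. In Sox2 IP, Itgam had 0.22 and 0 TPM at 6 h, both below the control values of 0.29 and 0.30 TPM. Adgre1 stayed between 0.02 and 0.39 TPM in the Prestin IPs and between 0.0028 and 0.32 TPM in the Sox2 IPs. At 6 h all Prestin noise IPs lay below their controls in Adgre1, and both Sox2 noise IPs above theirs.

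**Figure D5:**
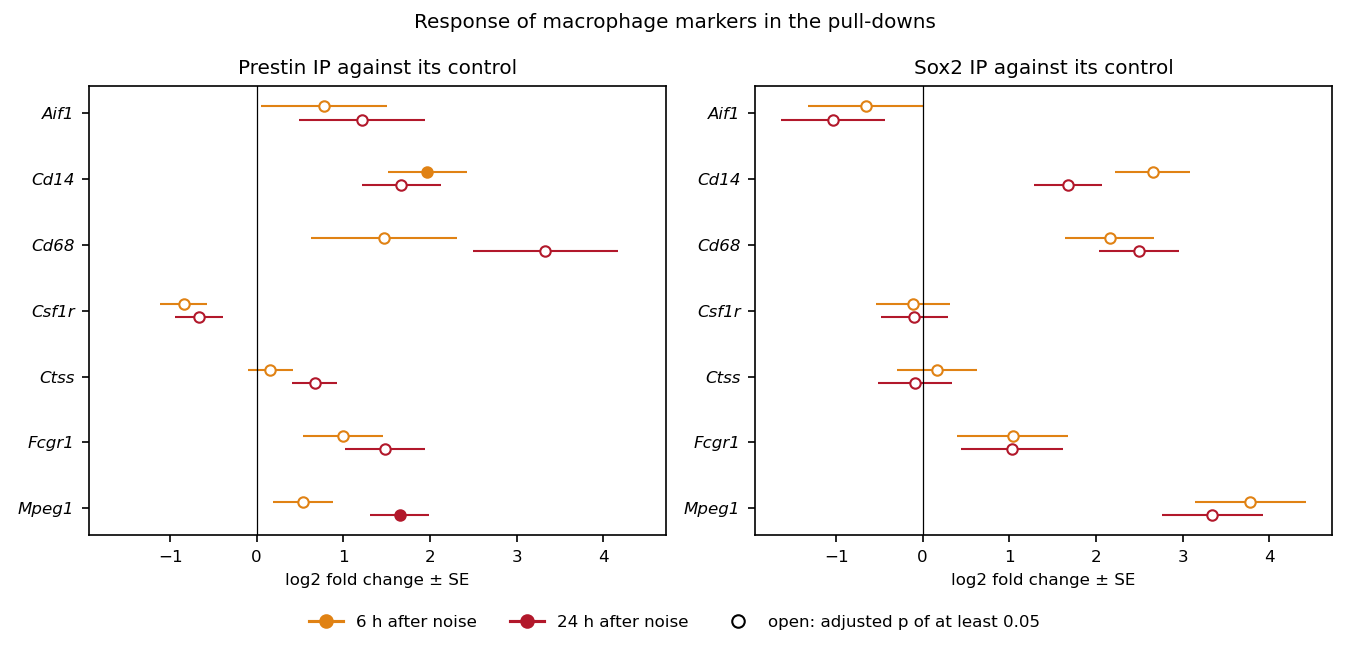
Log2 fold change ± SE of 7 members in Prestin IP (left) and Sox2 IP (right), noise against control, at 6 h (orange) and 24 h (red). Filled points have an adjusted p under 0.05: Cd14 at 6 h (1.97) and Mpeg1 at 24 h (1.65), both in Prestin IP.

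In counts, 1 of 7 members was higher and 0 lower in Prestin IP at 6 h, against 0.856% higher and 4.77% lower of 16703 genes (137 and 170 genes with median-of-ratios scaling in place of 143 and 797). At 24 h the counts were the same, against 1.1% and 5.14% (233 and 340 in place of 183 and 858). The median gene stood at -0.17 and -0.15 in these comparisons, and at 0.03 and 0.03 with that scaling. In Sox2 IP, limma called 0 of 8 members at 6 h, 3 at an unadjusted p under 0.05, against 0.216% higher and 0.478% lower of 17577 genes. At 24 h it called 0 of 8, again 3 at an unadjusted p under 0.05, against 0.108% and 0.0796%.

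Whether the IP response differed from that of the whole cochlea was tested as an interaction. No member passed in either strain. In Prestin, the 24 h response of Mpeg1 in IP exceeded that in input by 1.15 (adjusted p = 0.147), against 1.04% of genes called, and the 6 h response by 0.98 (adjusted p = 0.179), against 2.42%. Csf1r went the other way in Prestin, at -0.78 at 24 h (adjusted p = 0.189) and -0.71 at 6 h (adjusted p = 0.204). In Sox2, Mpeg1 exceeded by 4.31 ± 0.801 at 6 h (adjusted p = 0.0911) and by 2.95 at 24 h (adjusted p = 0.479), against 0.269% and 0.0485% of genes called. Cd68 exceeded by 2.19 at 6 h in Sox2 (adjusted p = 0.313).

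Some chemoattractants were higher in the pull-downs as well. In Prestin IP, 3 of 10 tested were higher at 6 h and 4 of 10 at 24 h, against 0.856% and 1.1% of all genes. Ccl2 stood at 5.20 and 5.79, Ccl7 at 4.97 and 5.01, Cxcl10 at 2.67 and 5.80, and Ccl5 at 4.63 at 24 h. In Sox2 IP, 1 of 10 was higher at 6 h, Ccl2 (5.01), against 0.216% of all genes. At 24 h 2 of 10 were higher, Ccl2 (4.65) and Cxcl10 (4.64), against 0.108%. Cx3cl1, the ligand of Cx3cr1, averaged 55.9 TPM in Sox2 IP at 6 h and 76.0 TPM at 24 h, against 193 TPM in control IP, without passing (-1.70, adjusted p = 0.113, and -1.26, adjusted p = 0.284). Of the lysosomal genes, Ctsl was higher in Prestin IP at 6 h (0.69) and Ctsl (0.73), Ctsb (0.96) and Ctsh (0.95) at 24 h, when Icam1 was higher too (2.59). Of the genes of macrophage and myeloid identity, 0 of 11 in Prestin IP and 0 of 13 in Sox2 IP passed at either time in limma, with C1qb at 0.98 in Prestin IP at 24 h (adjusted p = 0.0598).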

How the data were processed

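Per the labels' protocols, the NEBNext Ultra Directional kit was used on biological replicates, and whether animals were pooled is not stated there. The authors deposited TPM values per gene and library, each library summing to 1000000. The submitters' processing notes name TopHat and the build GRCm38. Which tool counted reads, with which annotation and whether by strand, is not given in the sources used here. Since TPM hold no depth, no counting interval was computed and no count test was run.

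The test was limma 3.58.1 (R 4.3.3) on log2(TPM + 1), with eBayes and its trend option. P-values were adjusted by Benjamini-Hochberg over all genes, with a threshold of 0.05. Genes reaching 1 TPM in at least 3 (Prestin), 2 (Sox2) or 5 (inputs of both strains) libraries were tested. Levels are mean TPM ± SD, and log2 differences carry the standard error of the fit. IP responses were fitted within a strain, input responses over both strains with strain as a covariate, and IP against input as the mean over the 3 conditions. The fit was tested on simulated data. Tables were read with pandas 2.3.3 and numpy 2.4.6 in python 3.11.15 and figures drawn with matplotlib 3.10.9. Positions come from GENCODE M21 and upstream sequences from RefSeq, where 7 members were searched.

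The members, the 17 further gene lists, the tests and the alternatives were chosen with earlier results of these data known. All members are named. Of each further list, up to 4 genes with the smallest p in a comparison are named, and 10 genes by likeness of profile. IP and input of a homogenate pair by design, and in 16 pairs their deviations from the means of their groups had an r of 0.013 to 0.238, with 15 IPs matching their own input best. In groups of 2 libraries both pairs give the same r by construction (0.044 and 0.062), so the pairs are not independent. Alternatives were the homogenate as a block, the pseudocount 0.1, leaving out the filter, median-of-ratios scaling, rescaling without mitochondrial genes and Malat1, single strains, and leaving out single libraries.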

Additional observations from a re-analysis of the deposited data

Results flagged for a closer look

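Adgre1, the F4/80 antigen, lay on opposite sides of its controls in the pull-downs of the strains at 6 h, at values near 0 TPM. In Prestin IP all 3 noise libraries lay below all controls, with a mean difference of -0.185 TPM. In Sox2 IP both noise libraries lay above both controls, with a mean difference of 0.16 TPM. With the low-value filter left out, neither difference passed in limma. The log2 values were -0.228 in Prestin IP (adjusted p = 0.192) and 0.200 in Sox2 IP (adjusted p = 0.556). The difference between the strains was not tested, since Adgre1 stayed under 1 TPM in all 32 libraries, and no cause was tested.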

How the results depend on the processing

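In the inputs, the count of members passing was 1 of 7 at 6 h, 3 at 24 h and 4 for 24 h against 6 h, and held under another pseudocount, no low-value filter, both rescalings and the replicate number as a block within 1.5 times. At 6 h it was 2 in Prestin inputs alone, 0 in Sox2 inputs alone, 3 without the Sox2 libraries at 6 h (an alternative added after the data were seen) and 1 to 2 with single libraries left out. Sox2 inputs alone gave 0 at 24 h and 1 for 24 h against 6 h. Without the low-value filter, Cx3cr1 entered the test over both strains and passed for 24 h against 6 h (adjusted p = 0.0321).

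In Prestin IP, Cd14 at 6 h lost its call, to a count of 0, with a pseudocount of 0.1 (adjusted p = 0.0514), no filter (0.073), median-of-ratios scaling (0.0545) and rescaling without mitochondrial genes and Malat1 (0.0577), and leaving out single libraries gave 0 to 1. At 24 h the count was 0 without the filter and with the replicate number as a block, and 0 to 3 without single libraries. In Sox2 IP at 6 h, omissions from the control or 6 h group leave a single library there, and their counts are left out.

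For IP against input, median-of-ratios scaling gave 7 of 8 members in Prestin, with Cx3cr1 among those tested, and 5 of 8 in Sox2, and the control libraries alone 2 and 1. That scaling turned the sign of Csf1r (-0.86) and Fcgr1 (-0.17) in Prestin and of Cd68 (-0.84) in Sox2. Single omissions gave 4 to 5 in Prestin. In Sox2, omissions from the control or 6 h groups leave a single library in a group, and their counts are left out. With the homogenate as a block 4 and 2 passed. The interactions held 0 members, and without single libraries 0 to 1 at 6 h in Prestin. The cause of these changes was not tested.

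The same replicate number across conditions gave an r of -0.101 to 0.094, which overlaps the range of the IP and input pairs. The block on this number changed no call besides those of Mpeg1 in Prestin IP at 24 h and Cd14 in inputs at 24 h against 6 h. TPM without depth limits what can be said of Adgre1, Itgam and Cx3cr1, which were near 1 TPM or below.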

Other observations

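Genes of cells related to macrophages were measured in the same inputs at 24 h. Of 3 tested osteoclast genes, which share the monocyte lineage, the bone protease Ctsk was higher than in controls (0.54, adjusted p = 0.000478), while the phosphatase Acp5 stood at 0.09 and Mmp9 at -0.31. Of 4 tested genes of dendritic cells and MHC class II, 2 of T and NK cells, 3 of B cells and 6 of endothelium, limma called 0 in each.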
